A study of Mus musculus with 8 samples.

Results

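PL1 is a murine line of lung squamous cell carcinoma (LUSC), and it is described here by the genes in which both of its libraries lay above, or both below, all 6 libraries of 3 other lines, PL12, PLA and PLA4. Levels were compared as CPM, the expected counts of a gene over the TMM-adjusted library size in 1000000 counts, and ties did not count. Of 53925 genes outside the Y chromosome, 2965 met the rule, 1680 higher in PL1 and 1285 lower. A filter on low counts kept 18634 genes for testing, and 2427 of the 2965 were among them, 1228 higher and 1199 lower. The other 538 were measured too thinly to test. Of the tested higher genes 120 passed that filter only through the PL1 libraries, and 199 of the lower ones reached its count in neither PL1 library. The filter itself asked for a difference in those genes, though not always from all 6 other libraries. The tested genes are not a sample of all that met the rule.

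The study compared LUSC lines from genetically engineered mice in the context of loss of ACKR3, an atypical chemokine receptor. Each line gave 2 libraries of total RNA, 8 in all, and no treatment, time point, age, passage or clone is named for any of them. The letters of the line names and the alleles behind them are not explained in the labels, so PL1 is known here by its name and its transcripts. Whether a line's 2 libraries were grown separately is not stated. The p-values below therefore reflect library-to-library spread alone, pooled over all lines, which may be technical. A comparison of 1 line against 3 others is a portrait of that line, not a test of ACKR3.

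LUSC cells resemble the basal layer of stratified epithelium: they express the transcription factor p63 and basal keratins, and they can enter a differentiation programme that builds the cornified envelope. NOTCH signalling drives that programme in stratified epithelia, while HOX transcription factors record position along the body axis and are kept silent or active in blocks of neighbouring genes. Lines made from tumours of 1 model often differ from each other in such inherited states.

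Promoters of 4 genes are shown because their genes were low or silent on one side of the comparison: Thbs2 and Dcaf12l1 were high in PL1, and Efemp1 and Edar in the other lines. Each is the 250 bases before the RefSeq start site on GRCm38.p6, 5′ to 3′ on the strand of the gene, in lower case with every CG dinucleotide in capitals. The motif CG, which reads the same on both strands, occurred in 98.4% of 12278 such windows, with a median of 15. The windows lie at chr17:14694263-14694512 (minus strand), chrX:44790198-44790447 (minus), chr11:28852955-28853204 (plus) and chr10:58675697-58675946 (minus), and hold 3, 6, 10 and 11 CG.
Thbs2: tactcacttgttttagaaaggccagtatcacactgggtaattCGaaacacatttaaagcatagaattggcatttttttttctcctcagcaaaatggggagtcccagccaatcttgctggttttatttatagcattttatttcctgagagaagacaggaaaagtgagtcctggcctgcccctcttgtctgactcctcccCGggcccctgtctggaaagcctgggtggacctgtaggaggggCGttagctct
Dcaf12l1: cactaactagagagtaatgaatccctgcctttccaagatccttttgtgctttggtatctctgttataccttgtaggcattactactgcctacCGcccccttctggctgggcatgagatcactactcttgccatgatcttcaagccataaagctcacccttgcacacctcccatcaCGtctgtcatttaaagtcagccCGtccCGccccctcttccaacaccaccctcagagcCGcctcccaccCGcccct
Efemp1: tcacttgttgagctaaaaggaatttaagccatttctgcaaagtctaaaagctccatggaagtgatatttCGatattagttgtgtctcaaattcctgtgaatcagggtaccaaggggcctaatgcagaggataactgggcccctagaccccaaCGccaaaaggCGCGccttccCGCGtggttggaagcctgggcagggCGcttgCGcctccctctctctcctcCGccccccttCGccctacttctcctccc
Edar: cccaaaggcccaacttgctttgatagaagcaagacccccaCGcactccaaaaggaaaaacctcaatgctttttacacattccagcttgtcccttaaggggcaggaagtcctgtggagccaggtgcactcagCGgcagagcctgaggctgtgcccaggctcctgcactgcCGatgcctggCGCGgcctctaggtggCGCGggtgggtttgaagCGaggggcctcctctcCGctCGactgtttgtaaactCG
All 4 windows hold fewer CG than the median. No difference between groups of genes was drawn from these counts, since a RefSeq window was matched for 65.9% of the genes tested and for 9 of the 17 genes that were off in PL1 alone.

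Libraries held 48857960 to 142458281 counts, and 88993934 and 107042196 in PL1. Across genes, which are not independent replicates, the PL1 libraries correlated at r = 0.978, against 0.997 in PL12, 0.999 in PLA and 0.974 in PLA4, and 2500 of 18634 genes (13.4%) lay over 2-fold apart between them. Squamous markers were present in PL1. Trp63, which encodes p63, was at 381 and 373 CPM and the basal keratin gene Krt5 at 5251 and 2645 CPM. Of 20 immune markers 9 had 0 counts in both PL1 libraries, among them Cd3e and Adgre1, and the summed level of all 20 was 9.79 and 14.2 CPM in PL1 against 6.81 to 85.5 CPM elsewhere. Endothelial markers summed to 1.13 and 1.23 CPM, with Erg, Tie1, Cldn5 and Emcn at 0. Ackr3 itself, on chromosome 1, met the rule with 86.3 and 33.2 CPM in PL1 against 25.3 and 26.3 CPM in PL12, 0.0487 and 0.0254 CPM in PLA and 0.387 and 0.228 CPM in PLA4. Against PL12, the other line that expresses it, the difference did not pass the test (adjusted p = 0.104, edgeR). Stk11, the gene of the kinase LKB1, held 19 and 23.8 CPM in PL1 and 15.4 to 28.9 CPM elsewhere (adjusted p = 0.957, edgeR, against the mean of the other lines).

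PL1 was the least separated of the 4 lines. The rule was met by 13.0% of genes tested in PL1 (6.59% higher, 6.43% lower), by 36.9% in PL12, 36.2% in PLA and 19.9% in PLA4. The libraries of PL12 and PLA agreed more closely than those of PL1, but those of PLA4 agreed slightly less (r = 0.974 against 0.978). Whether such agreement accounts for the shares was not tested. Among the genes that met the rule in PL1, the median log2 fold change against the mean of the other 3 lines was 0.72 for the higher and -1.01 for the lower, against 0.04 over all genes tested. A difference of at least 2-fold from every other line was found for 220 of the higher genes (17.9%) and 386 of the lower (32.2%). At the edge of the rule, Ro60 and Trp53i13 lay just inside, with 74.3 and 73.8 CPM in PL1 against 53.3 to 73.8 CPM in the other 6 libraries and 6.83 and 5.92 CPM in PL1 against 6.83 to 13.0 CPM in the other 6 libraries. Urah and Gpr108 lay just outside, with 78.4 and 77.5 CPM in PL1 against 35.5 to 77.5 CPM in the other 6 libraries and 39.8 and 48.4 CPM in PL1 against 48.3 to 105 CPM in the other 6 libraries.

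The differences were set against the spread between libraries with edgeR's quasi-likelihood test over all genes. For each gene all lines shared 1 estimate of that spread, so it was not the spread of PL1 itself. The pairs were unequal: genes over 2-fold apart numbered 114 in PLA, 524 in PL12, 2500 in PL1 and 2730 in PLA4. Against the mean of the other lines, 2450 genes passed (13.1%), 1406 higher (7.55%) and 1044 lower (5.6%), and these included 641 of the 1228 higher and 628 of the 1199 lower genes of the rule. Against each of the 3 lines separately with the same sign, 227 passed (1.22%), 85 higher (0.456%) and 142 lower (0.762%), and all 227 met the rule. PLA4 was the limiting comparison: 1585 genes differed between PL1 and PLA4 (8.51%), 4411 from PL12 (23.7%) and 5093 from PLA (27.3%). Because the rule and the test used the same libraries, these counts describe how far the genes stand apart and are not independent evidence for them. After the 2 libraries of each line were added together, leaving 1 profile per line, edgeR passed 0 of 20808 genes, and 330 (1.59%) had an unadjusted p under 0.05. DESeq2 on single libraries passed 4336 against the mean and 562 against each line. In what follows "called" means called by edgeR against each of the 3 lines unless another comparison is named, and the adjusted p is the largest of the 3.

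Thbs2, Sorcs1 and Slc7a11 were the genes farthest above every other line. Thbs2 (ENSMUSG00000023885.9, chromosome 17, 14665500 to 14694235 on GRCm38), which encodes the matrix glycoprotein thrombospondin 2, held 36.6 and 41.6 CPM in PL1 against 0.102 and 0.0735 CPM in PL12, 0.666 and 0.542 CPM in PLA and 5.06 and 0.672 CPM in PLA4. Both PL1 libraries lay far above the rest, and PLA4 replicate 1 was the nearest. The mean of PL1 was 33.0 times that of the other lines (the largest adjusted p of the 3 comparisons was 0.0481, edgeR). On the log2 scale, where each line enters by its log level, the difference was 6.21 ± 0.62 (SE). Sorcs1, a sorting receptor of the VPS10 family, held 19.8 and 29.4 CPM in PL1 against 2.84 and 2.56 CPM in PL12, 1.42 and 1.16 CPM in PLA and 0.0619 and 0.0692 CPM in PLA4, a difference from every line with an adjusted p = 0.00154 (edgeR). Slc7a11, the cystine importer xCT that feeds glutathione synthesis, held 114 and 248 CPM in PL1 against 18.6 and 16.5 CPM in PL12, 17.7 and 19.197 CPM in PLA and 23.8 and 32.5 CPM in PLA4. It was 8.48 times the mean of the others, and its lower PL1 library was still above all others, although the PL1 libraries differed by more than 2-fold.

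Sh3rf3, a scaffold of JNK signalling, stood at 13.8 and 9.28 CPM in PL1 against 0.0677 to 1.94 CPM in the other 6 libraries, with PLA4 nearest. Etv5, an ETS factor induced by ERK signalling, stood at 21 and 34.0 CPM in PL1 against 0.872 to 6.32 CPM in the other 6 libraries. Pros1, which encodes protein S, a ligand of TAM receptors, was at 20.6 and 27.1 CPM in PL1 against 2.00 to 6.31 CPM in the other 6 libraries. These 3 genes were 17.1, 7.94 and 6.10 times the mean of the other lines. Among genes of secreted or surface proteins, the TNF family ligand Tnfsf15 held 7.69 and 2.62 CPM in PL1 against 0.254 to 0.919 CPM in the other 6 libraries, the C-type lectin Clec2g 15.1 and 12.7 CPM in PL1 against 0 to 3.12 CPM in the other 6 libraries, and the SLAM family member Slamf9 14.1 and 9.08 CPM in PL1 against 1.54 to 4.41 CPM in the other 6 libraries. Il1rap, the shared subunit of receptors for interleukin 1 and its relatives, was at 23.8 and 24.9 CPM in PL1 against 6.42 to 12 CPM in the other 6 libraries. Nrg1, the ligand of ERBB3 and ERBB4, was at 58.7 and 87.1 CPM in PL1 against 14.9 to 42.6 CPM in the other 6 libraries. The remaining higher genes of the rule for naming were Odaph, Zfhx4, Snap25, Zfp992, Ivns1abp, Rab8b, Pde4d, Riox2 and Sgo2a, which were 2.15 to 6.74 times the mean of the other lines.

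**Figure D1:**
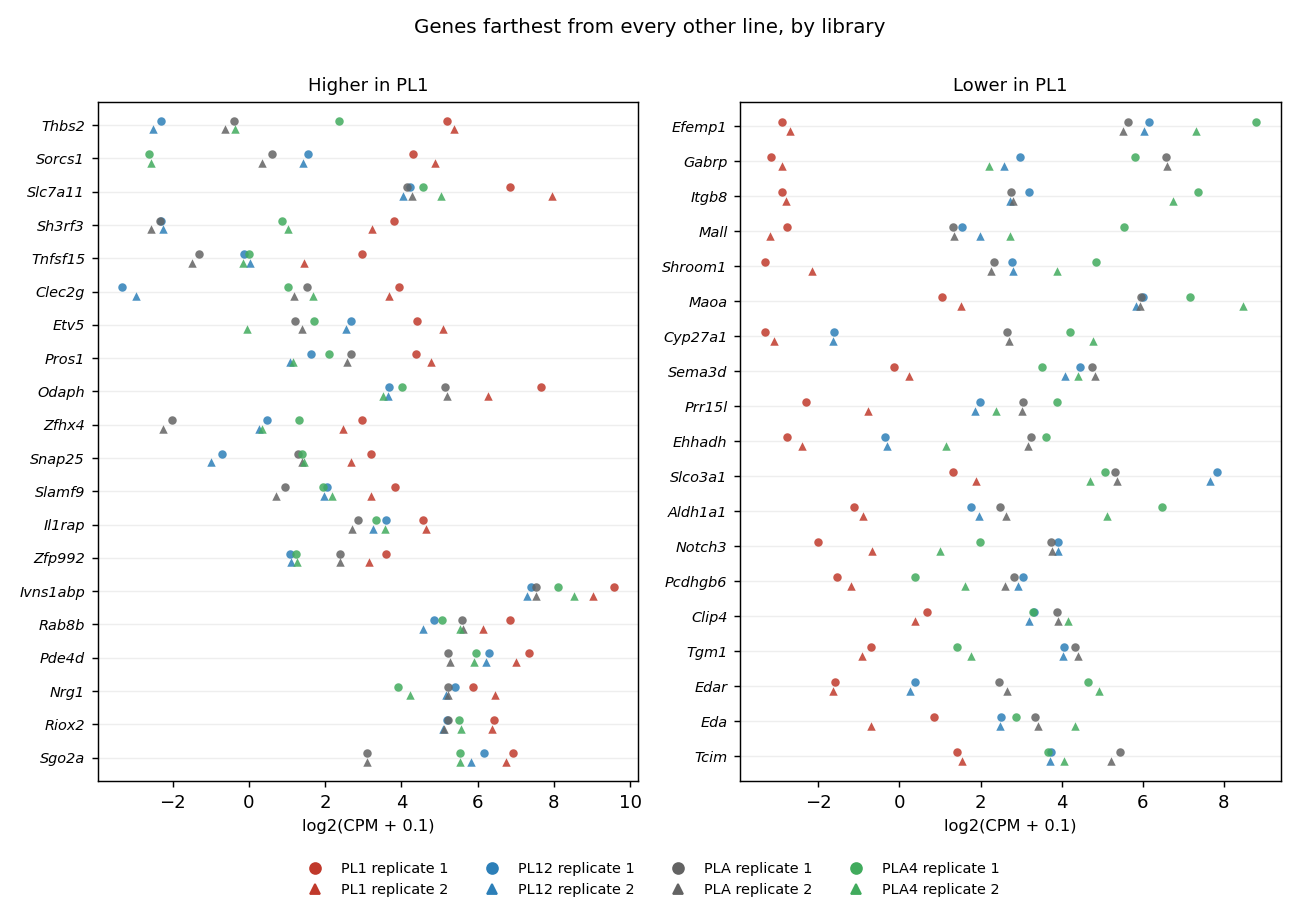
Genes called higher (left) and lower (right) in PL1 with the largest smallest log2 fold change over the 3 line comparisons. Each point is 1 library on a log2(CPM + 0.1) axis, colours mark lines, circles replicate 1 and triangles replicate 2. By the rule of choice every red point lies outside the others of its row, and the distances on the right reach further than those on the left.

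The genes farthest below every other line were nearly silent in PL1. Efemp1 (ENSMUSG00000020467.15, chromosome 11, 28853204 to 28926743), which encodes fibulin 3 of the extracellular matrix, held 0.0345 and 0.0529 CPM in PL1 against 71.2 and 65.6 CPM in PL12, 49.7 and 45.6 CPM in PLA and 442 and 158 CPM in PLA4. The PL1 libraries counted 3 and 6 reads, and the mean of the other lines was 3174 times theirs (adjusted p = 0.00152, edgeR). Itgb8, the integrin subunit that activates latent TGF-beta, held 0.0345 and 0.0441 CPM in PL1 against 8.98 and 6.48 CPM in PL12, 6.59 and 6.91 CPM in PLA and 165 and 108 CPM in PLA4. It was the only gene of 21 integrins tested that met the rule, and the adjusted p was 5.80e-04 (edgeR). Gabrp, a GABA-A receptor subunit of epithelia, held 0.0115 and 0.0353 CPM in PL1 against 7.76 and 5.90 CPM in PL12, 95.0 and 97.2 CPM in PLA and 56.0 and 4.51 CPM in PLA4. Its level in the other lines spanned a wide range, and all of them lay far above both PL1 libraries.

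Maoa, the monoamine oxidase of the outer mitochondrial membrane, stood at 1.97 and 2.78 CPM in PL1 against 56.5 to 357 CPM in the other 6 libraries and Cyp27a1, the sterol 27-hydroxylase, at 0 and 0.0176 CPM in PL1 against 0.221 to 27.2 CPM in the other 6 libraries. Mall, a raft protein of the MAL family, and Shroom1, an actin-binding protein, held 0.0460 and 0.00882 CPM and 0 and 0.123 CPM in PL1 against 2.40 to 45.9 CPM and 4.71 to 28.5 CPM elsewhere. Eda, the ligand ectodysplasin, which patterns skin appendages, held 1.70 and 0.511 CPM in PL1 against 5.51 to 20.04 CPM in the other 6 libraries, and Edar, its receptor, 0.230 and 0.220 CPM in PL1 against 1.09 to 30.3 CPM in the other 6 libraries. Among the further lower genes, the organic anion transporter Slco3a1 was 31.5 times higher in the mean of the other lines, the peroxisomal enzyme Ehhadh 84.6 times and the protocadherin Pcdhgb6 18.9 times. Prr15l, Clip4 and Tcim were 24.6, 9.35 and 8.44 times higher there.

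A stricter count took genes that were on (at least 1 CPM in every library) on one side and off (under 0.5 CPM in every library) on the other. PL1 alone was off for 17 genes and on for 10. The same counts were 58 and 115 in PL12, 62 and 106 in PLA, and 26 and 28 in PLA4. Dcaf12l1, a WD-repeat gene of the X chromosome, had 523 and 384 counts in PL1 and 0 in the other 6 libraries. Its mean of 4.70 CPM was at least 1061-fold higher than a floor of 3 counts over those 6 libraries. Pabpc4l, a poly(A)-binding protein gene, was on in PL1 alone at 1.61 and 1.16 CPM in PL1 against 0 to 0.230 CPM in the other 6 libraries, as was Arhgef6, a guanine nucleotide exchange factor, at 1.40 and 1.99 CPM in PL1 against 0.187 to 0.450 CPM in the other 6 libraries. Pik3cg, which encodes the catalytic subunit p110 gamma, was at 1.08 and 1.32 CPM in PL1 against 0.0762 to 0.471 CPM in the other 6 libraries, but it was not called in all 3 comparisons (adjusted p = 0.149, edgeR). Genes off in PL1 alone included Zfp69, at 0.311 and 0.353 CPM in PL1 against 1.00 to 2.46 CPM in the other 6 libraries, and Pde1c, a phosphodiesterase, at 0.219 and 0.458 CPM in PL1 against 1.56 to 91.7 CPM in the other 6 libraries. For all of these the side that is off is low, under 0.5 CPM in every library, and for Dcaf12l1 it held 0 counts.

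Positions along the genome were not used to choose the genes, and they were uneven. On chromosome 1, 274 of 1184 genes tested were higher in PL1 (23.1%) and 25 were lower (2.11%). Chromosome 1 held 6.35% of the genes tested and 22.3% of the higher genes of the rule. Across the other chromosomes the share that was higher ran from 1.33% to 11.4%. The median log2 fold change of chromosome 1 was 0.43, that is 1.35-fold, and 76.9% of its genes had a positive sign. The shift was present against each line, with medians of 0.50 against PL12, 0.39 against PLA and 0.31 against PLA4. It was also present in each PL1 library: centred on the mean of the 8 libraries, median levels on the log2(CPM + 1) scale were 0.291 and 0.270 in PL1, against -0.246 to 0.0174 in the other 6.

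The shift ran along the whole chromosome. In each of 10 bins of 20 Mb, between 24.2% and 39.6% of genes with a mean CPM of 1 or more were higher in PL1, and the median log2 fold change of the bins lay between 0.36 and 0.54. Most single differences were small, with a median log2 fold change of 0.64 for those that met the rule, and 24 were called higher. Among them were Ivns1abp, an actin-associated kelch protein, with 759 and 525 CPM in PL1 against 156 to 366 CPM in the other 6 libraries, and Sgo2a, the protector of centromeric cohesion, with 122 and 108 CPM in PL1 against 8.42 to 71.2 CPM in the other 6 libraries. Slamf9 and Ackr3 lie on the same chromosome. A stretch of 20 neighbouring tested genes from 143777642 to 151458161 held 11 that were higher, with a median log2 fold change of 0.90. It includes Brinp3, with 324 and 248 CPM in PL1 against 27.5 to 189 CPM in the other 6 libraries, the nuclear pore gene Tpr, with 474 and 402 CPM in PL1 against 176 to 330.5 CPM in the other 6 libraries, and Rgs2, a regulator of G-protein signalling, with 3.08 and 5.43 CPM in PL1 against 0.262 to 2.42 CPM in the other 6 libraries.

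Other chromosomes held more lower than higher genes. On chromosome 5, 168 of 1228 genes were lower in PL1 (13.7%) and 19 higher (1.55%). The low genes were concentrated in the first 80 Mb, where 111 of 450 met the rule (24.7%), with a median log2 fold change of -0.58 (-0.48 against PL12, -1.06 against PLA and -0.32 against PLA4). Beyond 80 Mb, 57 of 778 did (7.33%), near the 6.43% of all genes tested. The median there was -0.22 (-0.52 against PL12, -0.26 against PLA and 0.06 against PLA4), so PL1 was not low there relative to PLA4. PLA4 replicate 1 also stood low in the first 80 Mb, with a centred median of -0.271 beside -0.462 and -0.475 in PL1. On chromosome 2, 185 of 1395 genes were lower (13.3%), with a median of -0.21. The lower and higher shares were 12.7% and 3.58% on chromosome 18, 9.32% and 1.33% on chromosome 17, and 9.14% and 1.8% on chromosome 15. The median log2 fold change was negative against each line on chromosome 18. It was 0.12 against PLA4 on chromosome 17 and 0.03 against PL12 on chromosome 15, so PL1 was not the lowest line on those 2. By the rule 19.8% of genes on chromosome 17 were lower in PLA4 and 24.1% of those on chromosome 15 in PL12. Uneven chromosomes were not particular to PL1. By the same rule 34.9% of genes on chromosome 10 were higher in PLA4, beside 10.9% of all genes tested. On chromosome 13, 40.1% were lower in PLA, beside 16.5% of all genes tested. The densest stretch of lower genes lay on chromosome 5 from 24153294 to 25100642, where 11 of 20 neighbours met the rule. It includes the cyclin-dependent kinase Cdk5, with 24.8 and 23.1 CPM in PL1 against 36.9 to 64.6 CPM in the other 6 libraries, and Rheb, the activator of mTORC1, with 75.8 and 75.3 CPM in PL1 against 91.5 to 333 CPM in the other 6 libraries. Slc4a2, an anion exchanger, held 81.4 and 92.4 CPM in PL1 against 110.03 to 250.03 CPM in the other 6 libraries.

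**Figure D2:**
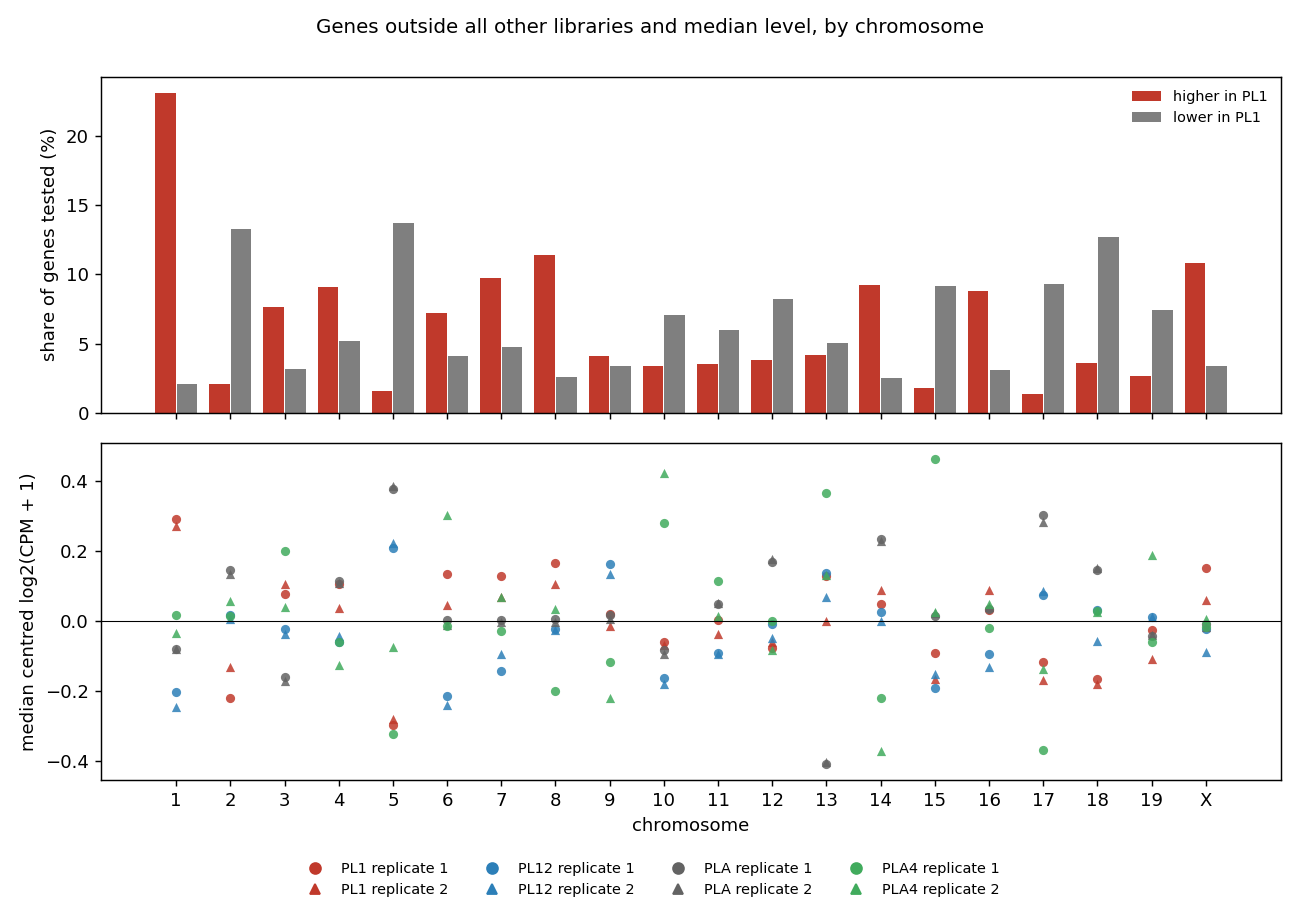
Top, share of the genes tested on each chromosome that were higher (red) or lower (grey) in both PL1 libraries than in all 6 others. Bottom, median over genes of log2(CPM + 1) centred on the mean of the 8 libraries, 1 point per library, for genes whose mean CPM over the libraries was 1 or more. Chromosome 1 has the tallest red bar (23.1%) and the 2 PL1 points there lie above all others, at 0.291 and 0.270.

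The densest stretch of higher genes was the HOXA cluster on chromosome 6, where 12 of 20 neighbouring tested genes in and beside it were higher in PL1. All 9 HOXA genes tested met the rule, and with Hoxb4 they made 10 of 18 HOX genes tested, with 0 lower. Hoxa6, Hoxa9 and Hoxa10 passed the filter on low counts only through the PL1 libraries and so had to be higher. The list of HOX genes was written with earlier results of these data known. The share of all genes tested that was higher is 6.59%, and no more is read from it. The count of 10 was the same with deposited TPM, with total counts and with DESeq2 size factors. Leaving out a library cannot lower this count, and without any 1 of the 8 libraries it did not rise above 10. Without PL1 replicate 2 a single gene was lower. Summed over the cluster, HOXA genes held 37.8 and 41 CPM in PL1, 8.66 and 8.27 CPM in PL12, 7.37 and 7.01 CPM in PLA, and 2.28 and 6.13 CPM in PLA4.

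Hoxa7 contributed most to that sum. It held 24.0 and 22.9 CPM in PL1 against 1.17 and 1.53 CPM in PL12, 1.02 and 0.923 CPM in PLA and 0.00774 and 1.27 CPM in PLA4, so both PL1 libraries were more than 10-fold above every other one, although the test missed the threshold in 1 comparison (adjusted p = 0.0872, edgeR). Hoxa3 (ENSMUSG00000079560.13, chromosome 6, 52169062 to 52213336) held 2.04 and 1.93 CPM in PL1 against 0.246 and 0.312 CPM in PL12, 0.122 and 0.152 CPM in PLA and 0.116 and 0.125 CPM in PLA4 and was called (adjusted p = 0.00605, edgeR), as was Hoxa6, with 0.334 and 0.309 CPM in PL1 against 0 to 0.0423 CPM in the other 6 libraries (adjusted p = 0.0365, edgeR). At the posterior end of the cluster, Hoxa9 and Hoxa10 were close to the limit of detection, with 0.184 and 0.123 CPM and 0.196 and 0.123 CPM in PL1. The antisense transcript Hoxaas3 also met the rule, at 0.529 and 0.538 CPM against 0.0155 to 0.180 CPM. The library kit is not stated to keep strand, so reads of HOXA genes and of their antisense partners cannot be told apart.

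The other HOX clusters did not follow. In HOXB, Hoxb4 held 8.84 and 10.7 CPM in PL1 against 3.56 and 5.53 CPM in PL12, 0.0731 and 0.0339 CPM in PLA and 0.0155 and 0 CPM in PLA4, highest in PL1 and nearly absent from PLA and PLA4. The cluster as a whole summed to 13.6 and 21 CPM in PL1 against 36.7 and 41 CPM in PL12, and its genes Hoxb5, Hoxb6 and Hoxb7 were lower in both PL1 libraries than in both of PL12. Hoxc13 was at 5.66 and 0.317 CPM in PL1, 0.0409 and 0 CPM in PL12, 0 and 0.0169 CPM in PLA and 0.759 and 30.2 CPM in PLA4, and its PL1 libraries were more than 10-fold apart. No gene of the HOXD cluster passed the filter on low counts.

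**Figure D3:**
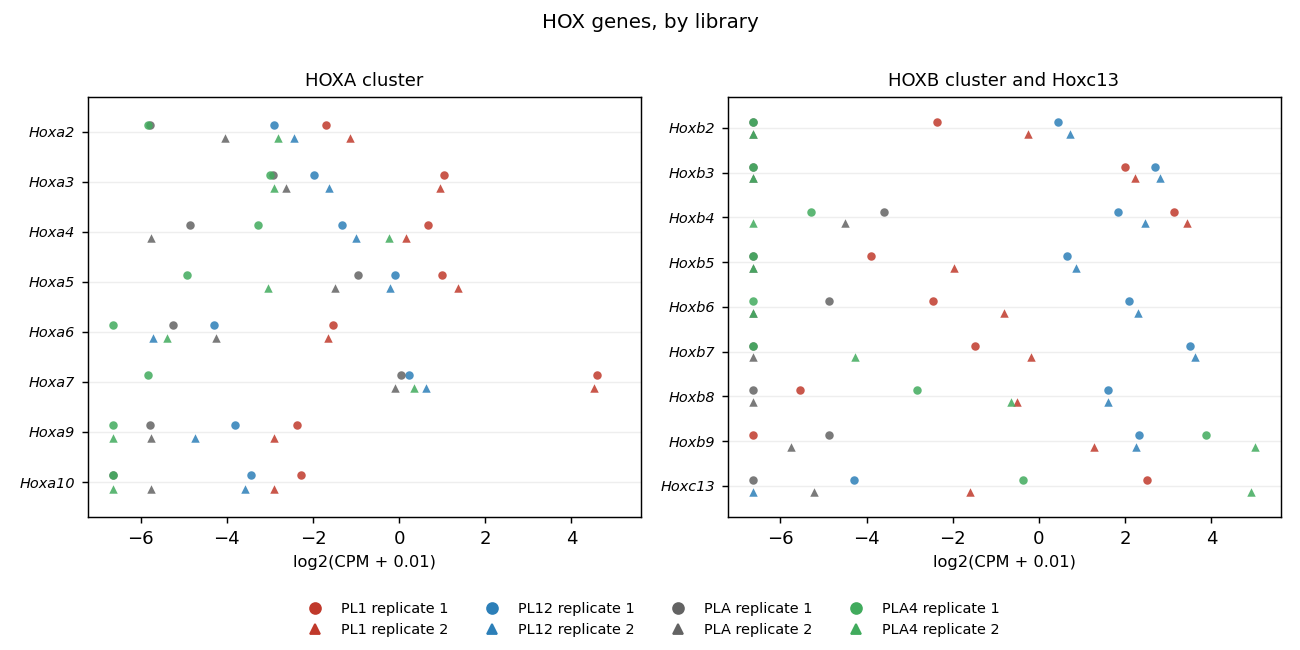
HOX genes that were tested, 1 point per library on a log2(CPM + 0.01) axis, colours and symbols marking lines and replicates. In the left panel both red points of each HOXA gene drawn lie to the right of all others, and in the right panel this holds for Hoxb4 alone. Points at the left edge are libraries with 0 counts.

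Counts over gene lists are given below beside the shares of all genes tested, 6.59% higher and 6.43% lower under the rule and 0.456% and 0.762% called. The rule is easier to meet with 1 PL1 library, and without replicate 1 it was met by 2591 higher and 2158 lower genes of 18634, without replicate 2 by 2655 and 2731.

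Of 64 other developmental regulators tested (homeobox, SOX, GATA, PAX, TBX and FOX genes), 9 were higher in PL1 and 2 lower, and 2 were called, where 6.59% and 6.43% of all genes tested were higher and lower and 0.456% were called higher. Without PL1 replicate 1 the counts were 13 and 5, and without replicate 2 they were 12 and 3. Hand2, a bHLH factor of mesoderm, held 2.09 and 0.917 CPM in PL1 against 0.0409 and 0.0184 CPM in PL12, 0 and 0 CPM in PLA and 0 and 0 CPM in PLA4 (adjusted p = 0.0200, edgeR), with all but 4 of its reads in PL1, and it passed the filter on low counts only through them. Foxc2, a forkhead factor of mesenchyme, held 1.08 and 0.846 CPM in PL1 against 0.0232 to 0.138 CPM in the other 6 libraries (adjusted p = 0.0422, edgeR). Tbx3, a T-box repressor, stood at 15.7 and 8.65 CPM in PL1 against 1.21 to 6.19 CPM in the other 6 libraries, Tbx15 at 18.8 and 19 CPM in PL1 against 0.0894 to 10.5 CPM in the other 6 libraries and Gata2 at 1.94 and 1.41 CPM in PL1 against 0.09001 to 0.757 CPM in the other 6 libraries, without being called. The homeobox genes Irx5 and Msx2 were also among the higher ones. Gata6 and the HOX cofactor Meis1 were the lower ones, with 9.42 and 8.51 CPM in PL1 against 11.2 to 16.9 CPM in the other 6 libraries for Meis1. The median log2 fold change of the list was 0.42.

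Of 17 NOTCH signalling genes tested, 5 were lower and 0 higher, and 2 were called, beside 6.43% of all genes lower and 0.762% called lower. Without PL1 replicate 1 the counts were 6 lower and 3 higher, and without replicate 2 they were 6 and 1. Notch3, a receptor, held 0.150 and 0.529 CPM in PL1 against 15 and 15 CPM in PL12, 13.3 and 13.6 CPM in PLA and 3.84 and 1.88 CPM in PLA4 (adjusted p = 0.0354, edgeR). Nrarp, a feedback inhibitor that is a direct target of the pathway, held 2.62 and 1.72 CPM in PL1 against 28.3 and 34.3 CPM in PL12, 6.96 and 6.79 CPM in PLA and 12.8 and 9.55 CPM in PLA4 (adjusted p = 0.00926, edgeR). Both genes were low in both PL1 libraries, and the nearest libraries were those of PLA4 for Notch3 and PLA for Nrarp. Notch1, a receptor, stood at 34.2 and 54.7 CPM in PL1 against 61.1 to 157 CPM in the other 6 libraries, and the ligand Dll4 at 0.173 and 0.256 CPM in PL1 against 0.374 to 2.23 CPM in the other 6 libraries. Dtx4, an E3 ligase of the pathway, was at 33.3 and 42.5 CPM in PL1 against 49.0 to 119 CPM in the other 6 libraries. The target Hes1 was not low, with 169.7 and 265 CPM in PL1 against 43.2 to 257 CPM elsewhere, and the median log2 fold change over the 17 genes was -0.13. Against the mean of the other lines Hes1 and a second target, Hey1, passed as higher.

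Of 23 genes of the cornified envelope and squamous differentiation, 6 were lower and 0 higher, with 3 called and a median log2 fold change of -0.81, beside 6.43% of all genes lower and 0.762% called lower. Without PL1 replicate 1 the counts were 8 lower and 2 higher, and without replicate 2 they were 8 and 0. Tgm1, the transglutaminase that cross-links the envelope, held 0.518 and 0.423 CPM in PL1 against 16.6 and 16.4 CPM in PL12, 19.995 and 21.2 CPM in PLA and 2.57 and 3.29 CPM in PLA4. Both PL1 libraries were under 1 CPM, and the mean of the other lines was 28.3 times higher (adjusted p = 0.00374, edgeR). Sprr1a, an envelope precursor, held 30.0 and 31.3 CPM in PL1 against 181 and 190.3 CPM in PL12, 710.3 and 691 CPM in PLA and 127 and 169.8 CPM in PLA4 (adjusted p = 0.00299, edgeR). Ppl, which encodes periplakin, was at 36.2 and 33.6 CPM in PL1 against 90.9 to 174 CPM in the other 6 libraries, and its partner envoplakin, Evpl, at 37.4 and 25.9 CPM in PL1 against 66.6 to 216 CPM in the other 6 libraries. The 29 basal and squamous markers tested held no gene of the rule. In 12 of them the PL1 libraries lay over 2-fold apart, which makes the rule harder to meet. Against the mean of the other lines 3 of the 29 passed as higher and 3 as lower. Involucrin, Ivl, another envelope precursor, was at 70.8 and 30.0 CPM within 5.72 to 79.5 CPM. Of the other cell types, club, goblet and alveolar markers had 2 lower genes of 20 tested, Cyp2f2 and Aqp5, and summed to 184.5 and 1365 CPM in PL1 against 253 to 3632 CPM elsewhere. In bulk RNA, fewer cells of a kind and less RNA per cell cannot be told apart.

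Detoxification genes went both ways. Of 59 NRF2 targets and detoxification genes tested, 1 was higher, Slc7a11, and 9 were lower, of which 3 were called, beside 6.43% of all genes lower and 0.762% called lower. Without PL1 replicate 1 the counts were 6 higher and 11 lower, and without replicate 2 they were 3 and 17. Aldh1a1, a retinaldehyde dehydrogenase, held 0.357 and 0.432 CPM in PL1 against 3.29 and 3.78 CPM in PL12, 5.52 and 6.12 CPM in PLA and 89.2 and 34.7 CPM in PLA4 (adjusted p = 0.00681, edgeR). Its neighbour Aldh1a7, a near relative with which it may share reads, held 0.0921 and 0.176 CPM in PL1 against 0.389 to 13.9 CPM in the other 6 libraries. Aldh2, the mitochondrial enzyme that clears acetaldehyde, held 12.9 and 12.9 CPM in PL1 against 52.7 and 53.4 CPM in PL12, 196 and 190.3 CPM in PLA and 137 and 60.8 CPM in PLA4 (adjusted p = 0.0114, edgeR). For all 3 both PL1 libraries were the lowest. Aldh1a3 followed with 1.01 and 3.13 CPM in PL1 against 3.68 to 27.7 CPM in the other 6 libraries, and 3 glutathione transferases, Gstm1, Gstm2 and Gstt1, were low as well, with 1.04 and 1.96 CPM for Gstm1 against 2.75 to 20.4 CPM. The GSTM genes are close copies of each other, and their counts are uncertain where reads match more than 1 of them. The canonical NRF2 targets Gclm and Txnrd1 were not separated, with 71.7 and 83.0 CPM within 46.4 to 131 CPM and 140.2 and 171 CPM within 86.0 to 316 CPM.

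Of 37 glycolysis and hypoxia genes tested, 11 were higher, most by a small step, 0 were lower and 26 were not separated, beside 6.59% of all genes higher. The median log2 fold change was 0.57, and 0 were called against each line. Against the mean of the other lines 6 passed as higher and 1 as lower, the lactate exporter Slc16a3, and without any 1 PL12 or PLA library 0 passed. Ldha, which makes lactate, held 2318 and 2242 CPM in PL1 against 1661 and 1652 CPM in PL12, 983 and 944 CPM in PLA and 1168 and 1484 CPM in PLA4. Gapdh, a dehydrogenase of the same path, held 2390.3 and 2337 CPM in PL1 against 1730.3 and 1709 CPM in PL12, 1039.6 and 1064 CPM in PLA and 827 and 1923 CPM in PLA4. Pgk1, which makes ATP in it, held 1477 and 1500.5 CPM in PL1 against 675 to 1201 CPM in the other 6 libraries. The PL1 libraries of these 3 genes were close to each other and lay above all others, but by less than 1.5-fold over the nearest library. Pgam1, Aldoa, Gpi1 and Eno1, enzymes of the same path, were 1.29 to 1.64 times the mean of the other lines. Of the genes induced by hypoxia, the mitophagy receptor Bnip3 was at 190.2 and 268 CPM in PL1 against 65.4 to 167 CPM in the other 6 libraries and carbonic anhydrase 12, Car12, at 21.4 and 50.4 CPM in PL1 against 1.99 to 18.8 CPM in the other 6 libraries. The glucose importer Slc2a1 did not follow, with 198 and 217 CPM within 129.9 to 264 CPM. In 13 of the 37 genes PL1 replicate 2 lay over 2-fold above replicate 1, and without replicate 1 the counts were 22 higher and 0 lower. Without replicate 2 they were 11 and 4.

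**Figure D4:**
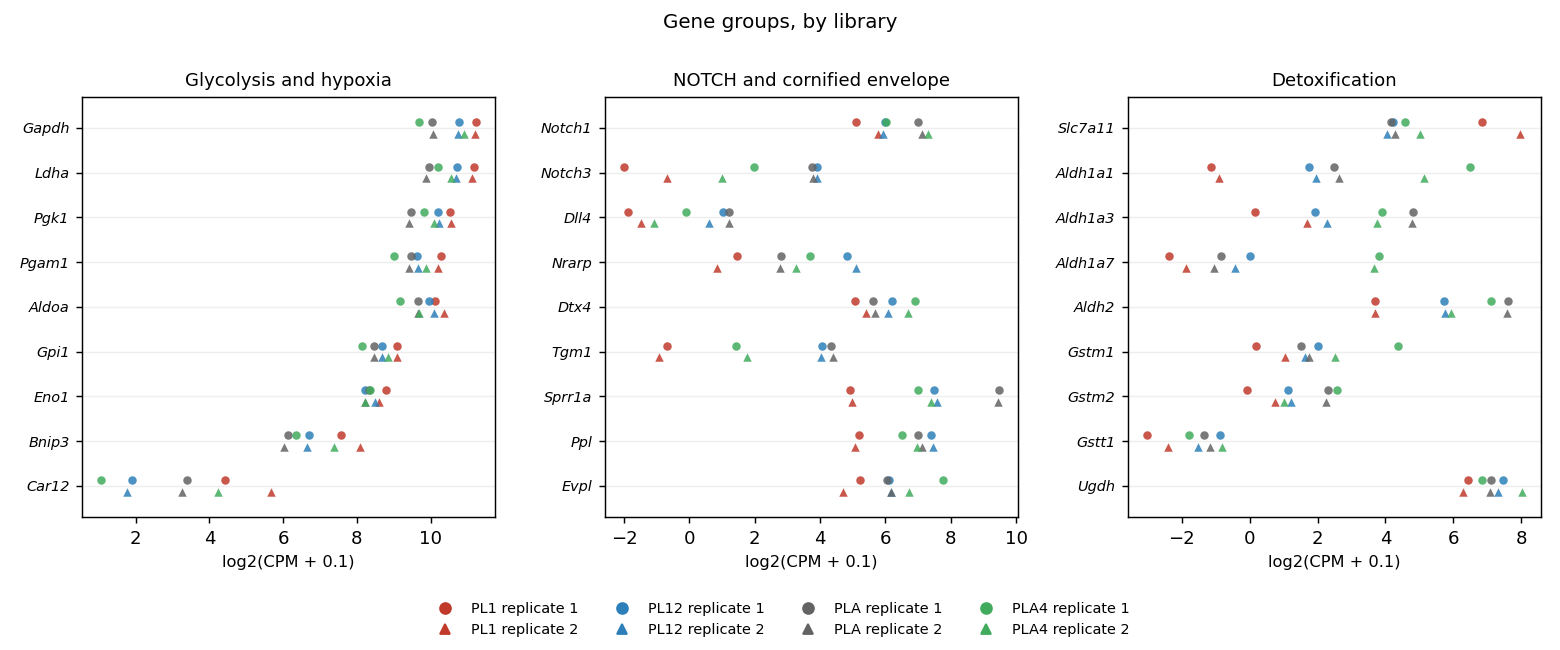
Genes of 3 groups that met the rule, 1 point per library on a log2(CPM + 0.1) axis. Colours mark lines, circles replicate 1 and triangles replicate 2. Genes of these groups that did not meet the rule are not drawn, so the panels do not show the groups as a whole. By this choice the red points lie outside the others of each row. In the left panel they are the highest, by small steps for the enzymes of glycolysis, and in the middle panel they are the lowest. In the right panel Slc7a11 is high in PL1 and the 8 genes under it are low.

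Of 31 FGF, PDGF, HGF and IGF ligands and receptors tested, 1 was higher and 4 lower, beside 6.59% and 6.43% of all genes. With TPM, total counts or size factors 2 were higher, without PL1 replicate 1 the counts were 6 higher and 4 lower, and without replicate 2 they were 3 and 6. Igf1r, the receptor of insulin-like growth factor 1, held 831 and 821 CPM in PL1 against 214 and 208 CPM in PL12, 493 and 548 CPM in PLA and 455 and 438 CPM in PLA4, and both PL1 libraries were above all others (adjusted p = 0.0180, edgeR). Fgfbp1, a secreted carrier of FGFs, stood at 2.95 and 4.10 CPM in PL1 against 9.58 to 74.3 CPM in the other 6 libraries and Igf2r, the clearing receptor of IGF2, at 89.4 and 131 CPM in PL1 against 145 to 265 CPM in the other 6 libraries. Among 16 EGF family and ERBB genes, Nrg1 was higher and its receptor Erbb3 lower, with 9.83 and 20.7 CPM in PL1 against 32.2 to 63.2 CPM in the other 6 libraries for Erbb3. Of 24 ERK reporters, Etv5, Spred2 and Egr3 were higher and 0 lower, beside 6.59% and 6.43% of all genes. Egr3 passed the filter on low counts only through PL1. With TPM or total counts 4 were higher. Without PL1 replicate 1 the counts were 8 higher and 1 lower, and without replicate 2 they were 5 and 1. In 12 of the 24 the PL1 libraries lay over 2-fold apart. Spred2, an inhibitor of the pathway, was at 89.4 and 67.9 CPM in PL1 against 39.6 to 67.6 CPM in the other 6 libraries, and the early gene Egr3 reached only 0.311 and 0.511 CPM in PL1.

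The further lists, of WNT, TGF-beta and BMP, axon guidance and protease genes, met the rule about as often as all genes tested (6.59% higher, 6.43% lower) or less, so their counts are no result and single genes are described. Of 40 WNT genes 3 were higher and 1 lower. Wnt7b, a ligand of lung epithelium, held 47.5 and 58.8 CPM in PL1 against 313 and 327 CPM in PL12, 359 and 353 CPM in PLA and 258 and 146 CPM in PLA4 and was called (adjusted p = 0.0172, edgeR). Fzd3, a receptor, was at 7.95 and 5.98 CPM in PL1 against 0.114 to 4.48 CPM in the other 6 libraries, the transcription factor Lef1 at 0.219 and 0.388 CPM in PL1 against 0 to 0.184 CPM in the other 6 libraries and the secreted inhibitor Notum at 2.35 and 1.86 CPM in PL1 against 0.0423 to 1.84 CPM in the other 6 libraries. Of 39 TGF-beta and BMP genes 3 were lower and 0 higher, and without PL1 replicate 1 or 2 there were 7 lower each time and 2 or 5 higher. Ltbp1, which anchors latent TGF-beta in the matrix, held 27.2 and 39.7 CPM in PL1 against 76.8 to 226 CPM in the other 6 libraries and was called (adjusted p = 0.0231, edgeR). Itgb8, described above, acts on the same latent complex.

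Of 52 axon guidance genes, some of which also steer epithelial cells, 4 were higher and 5 lower. The secreted semaphorin Sema3d held 0.817 and 1.08 CPM in PL1 against 21.7 and 16.7 CPM in PL12, 26.6 and 28.1 CPM in PLA and 11.3 and 21.1 CPM in PLA4 and was called (adjusted p = 0.00490, edgeR), and so was the ephrin Efna2, with 0.403 and 0.450 CPM in PL1 against 0.897 to 2.24 CPM in the other 6 libraries (adjusted p = 0.0318, edgeR). The netrin Ntn4 and the receptor Epha4 were also lower, with 26.5 and 25.9 CPM in PL1 against 38.9 to 226 CPM in the other 6 libraries and 41.8 and 45.9 CPM in PL1 against 54.6 to 189 CPM in the other 6 libraries. On the higher side, the receptor Plxnd1 stood at 18.8 and 23.6 CPM in PL1 against 4.27 to 17.0 CPM in the other 6 libraries. Among 42 extracellular proteases and inhibitors, 2 were higher and 3 lower, and these counts were 13 and 6 without PL1 replicate 1 and 6 and 11 without replicate 2. The stromelysin Mmp11 was called, with 2.43 and 2.61 CPM in PL1 against 6.83 to 20.2 CPM in the other 6 libraries (adjusted p = 0.0351, edgeR), and Timp3, an inhibitor of metalloproteinases, was at 0.564 and 5.97 CPM in PL1 against 37.1 to 549 CPM in the other 6 libraries, with PL1 replicate 2 over 10 times replicate 1.

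Of 34 S phase genes, 3 met the rule, the helicase subunits Mcm3 and Mcm4 and the histone chaperone Chaf1b, and of 30 mitotic genes 1 did, Cenpf, beside 6.59% of all genes. Deposited TPM gave 7 and 1, and without PL1 replicate 2 there were 16 and 8. Mcm3 held 183 and 164 CPM in PL1 against 142 and 131 CPM in PL12, 21.7 and 21.6 CPM in PLA and 72.2 and 102 CPM in PLA4. PL12 was close to PL1, and the test against it missed the threshold (adjusted p = 0.199, edgeR). Against the mean of the other lines 19 of 34 S phase genes and 19 of 30 mitotic genes were called higher and 0 lower, beside 7.55% of all genes called higher, with median log2 fold changes of 0.78 and 0.95. These counts were 4 and 3 without either PL12 library, 5 and 3 without either PLA library, and 9 and 5 without PL1 replicate 1. Without PLA4 replicate 1 they were 23 and 21, with 1 S phase gene lower. PLA lowers that mean: on the log2(CPM + 1) scale the mean level of the S phase genes was 5.87 and 5.54 in PL1, 5.92 and 5.92 in PL12, 3.95 and 3.95 in PLA, and 5.03 and 5.47 in PLA4. For the mitotic genes it was 6.75 and 6.17 in PL1, 7.03 and 6.93 in PL12, 3.82 and 3.80 in PLA, and 5.59 and 6.24 in PLA4. In both lists PL12 stood above PL1. Of the 39 lists, 6 held no gene of the rule: basal and squamous markers, mesenchymal, immune and endothelial markers, interferon response genes, and collagens with laminins.

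Imprinted and surface genes gave single cases. Snrpn held 42.1 and 27.6 CPM in PL1 against 15.8 and 18.1 CPM in PL12, 0 and 0 CPM in PLA and 0.0232 and 6.36 CPM in PLA4, and Snurf, which overlaps it and shares reads with it, was on in PL1 alone with 1.14 and 1.06 CPM in PL1 against 0 to 0.276 CPM in the other 6 libraries. Neither was called. H60c, a ligand of the receptor NKG2D, was lower in PL1 with 2.14 and 1.92 CPM in PL1 against 6.94 to 95.1 CPM in the other 6 libraries (adjusted p = 0.0368, edgeR). Snap25, a SNARE protein of neurons, was the only one of 10 neuroendocrine and neuronal markers tested that met the rule, with 9.15 and 6.34 CPM in PL1 against 0.404 to 2.63 CPM in the other 6 libraries, while Neurod1, Chga and Calca had 0 counts in both PL1 libraries.

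The 2 PL1 libraries were not alike, and this bears on which genes could meet the rule. Over all genes tested 2500 lay over 2-fold apart, 1750 of them higher in replicate 2. Among genes of the rule it was 51 of 1228 higher genes (4.15%) and 81 of 1199 lower genes (6.76%), a smaller share that the rule itself favours, since it asks for both libraries on one side. Mesenchymal and interferon response genes, which held no gene of the rule, differed widely between the libraries. Of 31 mesenchymal genes 22 were over 2-fold higher in replicate 2 and 4 in replicate 1. Against the mean of the other lines 9 of the 31 passed as higher and 1 as lower, beside 7.55% and 5.6% of all genes. Their median log2 fold change was 2.60. Their mean log2(CPM + 1) was 2.02 and 3.76 in PL1 against 1.55 to 3.29 in the other 6 libraries, so replicate 1 lay within the range of the other lines. Col1a1, a fibrillar collagen, held 0.575 and 254 CPM in PL1, 0.675 and 0.570 CPM in PL12, 0.382 and 0.440 CPM in PLA and 4.36 and 0.436 CPM in PLA4, so only PL1 replicate 2 was high. Of 43 interferon response genes 28 were over 2-fold higher in replicate 2 and 0 in replicate 1, for example Ifit1 at 2.76 and 23.5 CPM. Against the mean of the other lines 1 of the 43 passed as higher and 3 as lower, with a median log2 fold change of -1.24.

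Among genes of the rule, the 4 with the largest excess in replicate 2 were Pak3, Cyp2f2, Armcx2 and Pmp22. Pak3, a p21-activated kinase, held 0.0345 and 2.29 CPM in PL1 against 12 to 32.0 CPM in the other 6 libraries, and Armcx2 0.104 and 3.16 CPM in PL1 against 0 to 0.0819 CPM in the other 6 libraries. The 4 with the largest excess in replicate 1 were Unc5c, Epha3, Klk8 and Rassf2. Unc5c, a netrin receptor, held 44.4 and 2.65 CPM in PL1 against 0 to 0.123 CPM in the other 6 libraries. All 8 met the rule although the PL1 libraries differed by over 4-fold on CPM + 0.1, and 0 of the 8 were called. Whether the 2 libraries differ in culture or in preparation was not tested.

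**Figure D5:**
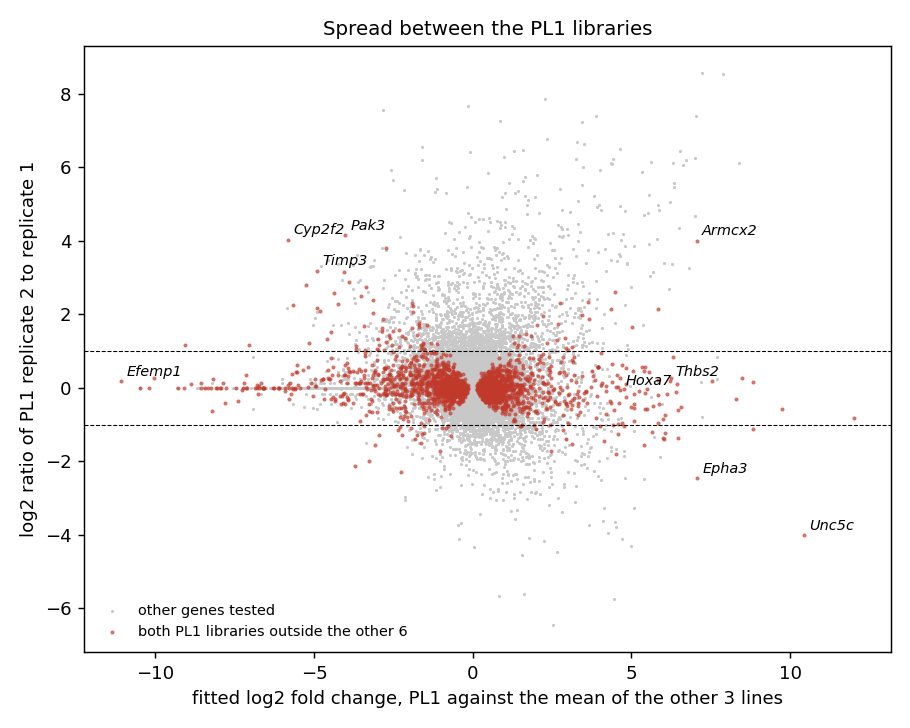
Each point is 1 gene tested. The x axis gives the fitted log2 fold change of PL1 against the mean of the other 3 lines, and the y axis the log2 ratio of PL1 replicate 2 to replicate 1 on CPM + 0.1, with dashed lines at 2-fold. Red points met the rule and mostly lie between the dashed lines, while Unc5c and Pak3 lie far outside them.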

How the data were processed

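The data are 2 libraries from each of 4 LUSC lines, by group as labelled. The authors deposited gene tables of expected counts and of TPM (transcripts per length and depth), made by RSEM per the file headers. The submitters' processing notes name FastQC, STAR, RSEM, DESeq2 and the GRCm38 build, with the gene annotation's release not given in the sources used here. Expected counts, 14.2% of which were not whole, were rounded. Libraries held 48857960 to 142458281 counts, so 3 counts correspond to 0.0211 to 0.0614 CPM, a limit for counting error only.

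The members and the gene lists were chosen with earlier results of these data known, and the lists drew in part on an earlier analysis. Genes were filtered on low counts with filterByExpr (18648 of 55487 kept) and fitted in 1 edgeR quasi-likelihood model (edgeR 4.0.16, limma 3.58.1, R 4.3.3) with TMM factors and a mean for each line, over all 8 libraries. PL1 was set against each other line and against the mean of the 3, with Benjamini-Hochberg adjustment over all genes and a threshold of 0.05. DESeq2 1.42.0 was an alternative. The 14 genes of the Y chromosome were then left out. On counts simulated for 18648 genes, the comparison with the mean found 82% of 100 genes altered by 4-fold, 94% of 100 altered by 16-fold and 13 unaltered ones. The comparison with each line found 62%, 92% and 1. In the simulation the other lines shared 1 mean per gene, all lines shared 1 spread per gene, and altered genes held at least 1 CPM. The real lines differ from each other in level and in spread, so these figures do not carry over to the data.

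Named genes were the 20 called higher and the 20 called lower with the largest smallest fold over the 3 lines, the genes on or off in PL1 alone, and the members and calls of each list. Others, such as those of dense stretches and markers, were named after their values were seen. The labels do not say that replicate numbers pair libraries. Deviations of libraries with the same number correlated across genes at r = -0.194 (PL1 and PLA4) to 0.0148 (PL12 and PLA4). Such correlations cannot show whether libraries were prepared together. Gene positions came from the GENCODE annotation of GRCm38 matched by gene identifier, and promoter windows from RefSeq on GRCm38.p6. A few items are not reported here.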

Additional observations from a re-analysis of the deposited data

How the results depend on the processing

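Against the mean of the other lines 2450 genes were called and against each line 227. DESeq2 called 4336 and 562, and a minimum of 2-fold left 1270 and 134. With a replicate block edgeR called 1351 and 88, although the labels do not say that the numbers pair the libraries. Counts summed per line left 0 calls, with 330 of 20808 genes at an unadjusted p under 0.05 and a lowest adjusted p of 1. Without 1 library at a time the counts ran from 378 (without PLA replicate 2) to 4236 (without PLA4 replicate 2) and from 33 (without either PL12 library) to 491 (without PLA4 replicate 2). Without either PLA library they were 380 and 378, and 38 and 38. Without either PL12 library the first count was 487 and 483. Without PL1 replicate 1 they were 1764 and 318, and without replicate 2 they were 2584 and 302. The cause was not tested. Of 2427 tested genes that met the rule, 137 kept a gap of at least 2-fold. Without 1 library between 2530 (PLA replicate 2) and 5386 (PL1 replicate 2) met it, since fewer libraries make the rule easier. Scaling by TPM, totals or size factors gave 2356 to 2442 genes. Of 865 alternative values for the 58 named genes that passed against the mean of the other lines, 737 passed again, 128 did not and 0 changed sign. Stk11, which did not pass, changed sign around 0 in 4 settings. No such count was made for calls against each line. Of the 128, 58 came from counts summed per line. The counts for lists and chromosomes under other scalings and without single libraries were alternatives added after seeing the data.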
